A study of Macaca mulatta with 12 samples.

Results

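The genes described here encode the mitochondrial ribosome, the protein import machinery and the metabolite carriers of mitochondria: 40 MRPL genes for the large subunit of the mitochondrial ribosome, 22 MRPS genes named for its small subunit, 5 TOMM genes named for the outer membrane, 12 TIMM genes of the inner membrane and the space between the membranes, and 36 SLC25A genes of the mitochondrial carrier family, most of which act in the inner membrane. They are the 115 genes, of 14132 in all, whose single symbol in the platform annotation starts with MRPL or MRPS and a digit, or with TIMM, TOMM or SLC25A. Their names chose them, and no measured value did. Each gene is read from the probe set, a group of array probes summarised as 1 value, with the highest mean over the arrays, and the 115 genes have 186 probe sets in all.

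The study measured RNA from 12 corpora lutea of rhesus macaques with normal menstrual cycles, 1 corpus luteum per array, on one-colour Affymetrix arrays. The 4 late regressed glands were taken on days 14 to 16 after the LH surge from animals with serum progesterone below 0.5 ng/ml. The 4 late functional glands were taken on the same days from animals with serum progesterone above 1.5 ng/ml, and the 4 mid-late glands, the baseline, on days 10 to 12, while progesterone was still made. The labels name no treatment or genotype and call the arrays of a group biological replicates, and give no ages. Values are log2 array values as deposited, a difference is that between the means of 2 groups, with its standard error (SE) from limma, and a gene is called where limma's Benjamini-Hochberg adjusted p over 52707 probe sets lies below 0.05 in that comparison. Levels of different genes cannot be compared on this scale. In whole glands, fewer cells of a type and less RNA per cell cannot be told apart.

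The mitochondrial ribosome translates the few proteins that mitochondrial DNA encodes, all of them parts of the respiratory chain and ATP synthase. Its own proteins, like nearly all mitochondrial proteins, are made in the cytosol and imported: the TOMM complex is the entry gate of the outer membrane, one TIMM complex passes proteins with a cleavable leader into the matrix, and another inserts the carriers of the SLC25 family, which small TIMM chaperones hand across the space between the membranes. The carriers then exchange nucleotides, phosphate, iron and metabolites across the inner membrane. In the corpus luteum, the gland that forms from the ovulated follicle, progesterone synthesis begins in mitochondria, where the side chain of cholesterol is cleaved.

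Arrays 2 and 3 of the late regressed group scored 93.2 and 81.6 on the first principal component (40.8% of the variance), against -43.0 to 12.6 for the other 10 arrays, and array 2 had a difference of 2.52 between 3′ and 5′ control signals, against 0.46 to 0.70 elsewhere. The mean of 674 probe sets with the prefix NC and no gene symbol was 3.48 to 3.58 in late regressed, 3.53 to 3.61 in late functional and 3.65 to 3.75 in mid-late arrays. Luteal markers were present in all groups, and the mean deviation of the 7 measured of 8 from their mid-late means was -2.51 to -0.70 in late regressed, -0.53 to -0.01 in late functional and -0.14 to 0.09 in mid-late arrays. That of 8 of 10 macrophage markers was 0.39 to 2.61, 1.20 to 1.53 and -0.91 to 1.01 in the same order of groups, and that of 6 of 6 endothelial markers 0.06 to 0.36, 0.06 to 0.22 and -0.11 to 0.08. The ranges of 5 of 6 fibroblast, 3 of 6 T and natural killer and 2 of 6 smooth muscle markers overlapped among the groups. The part of these differences in the results below was not tested.

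Late regressed against mid-late glands sets regressed tissue against the baseline stage. Of the 115 genes, 10 were lower and 0 were higher in late regressed glands (8.70% lower), against 5.51% lower and 7.6% higher over all genes. The 10 were 4 large subunit genes (MRPL33, MRPL41, MRPL55 and MRPL57), 3 small subunit genes (MRPS12, MRPS16 and MRPS33), the import genes TIMM10 and TIMM22, and the carrier SLC25A35. Their differences were between -0.72 and -0.29, or 1.22-fold to 1.65-fold lower. At an unadjusted p below 0.05, limma gave 29 lower (25.2%) and 5 higher (4.35%) genes, beside 17.4% and 18.4% of all genes. All 4 late regressed arrays lay below all 4 mid-late arrays for 17 genes (14.8%) and above them for 4 (3.48%), beside 9.96% and 10.8% of all genes.

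The direction was mostly downward but the sizes were small. Of the 115 differences, 84 were below 0, with a median of -0.09 beside -0.02 over all genes. Among the 103 genes with a mean above 4.64, the 95th percentile of the NC probe sets, the median was -0.11, beside 0.06 over the 9424 genes with such a mean. By subfamily, the medians were -0.11 for MRPL, -0.28 for MRPS, 0.21 for TOMM, -0.09 for TIMM and -0.06 for SLC25A genes. The TOMM genes were thus the subfamily with a median above 0, with 3 of 5 genes above 0 and none called, and the median became -0.04 when each gene was read as the mean over its probe sets. Centring each array on its median left 72 differences below 0, with a median of -0.04, and called 5 genes lower and TOMM7 higher. It moved the median over all genes to 0.02. Centring shifts the difference of every gene by the same amount, so the 0.07 by which the 115 genes stood below all genes could not change. Quantile normalization of the arrays gave 91 differences below 0, a median of -0.20, and 15 genes lower and 0 higher. The median over all genes was then -0.03.

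**Figure D1:**
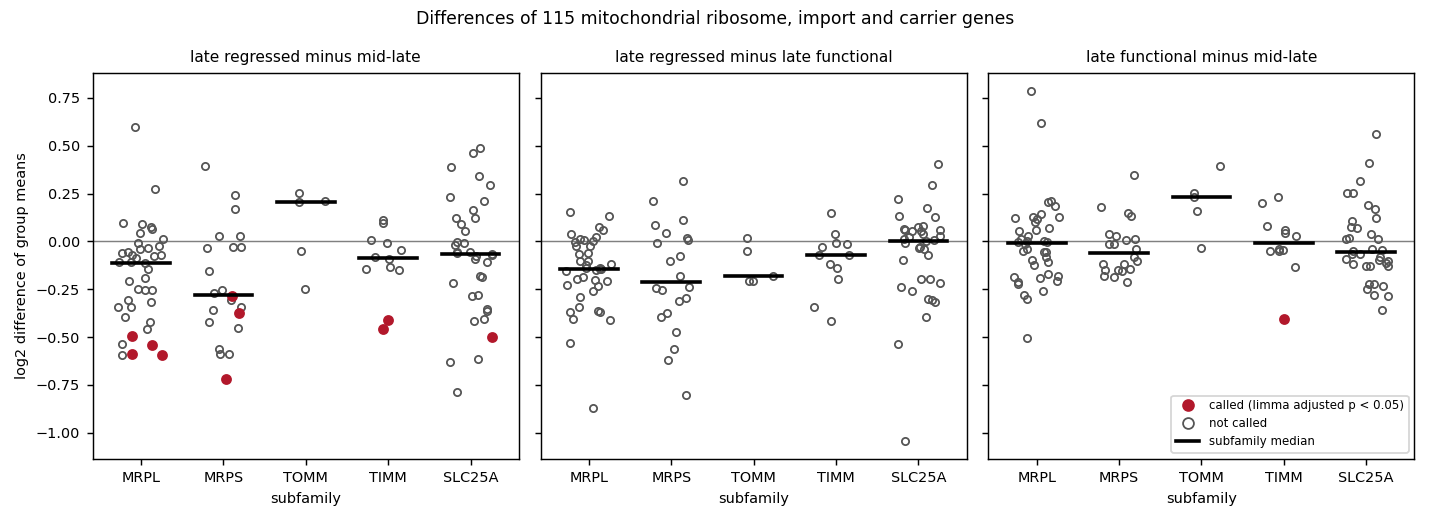
Log2 difference of group means (y axis) of each of the 115 genes by subfamily (x axis) in the 3 comparisons, with filled points for called genes and a bar for the subfamily median. Late regressed minus mid-late holds 10 called genes, all below 0, late regressed minus late functional holds none, and late functional minus mid-late holds 1, TIMM10.

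Among the 40 large subunit genes, 4 were lower (10%) and none was higher, beside 5.51% lower and 7.6% higher over all genes. Of the 40 differences, 32 were below 0. MRPL33, a small protein of the large subunit with a bacterial counterpart (probe set MmugDNA.5382.1.S1_at), had 9.97, 9.74, 9.76 and 9.48 in late regressed arrays 1 to 4, 10.25, 10.35, 10.21 and 9.78 in late functional arrays, and 10.11, 10.53, 10.26 and 10.40 in mid-late arrays. Every late regressed array lay below every mid-late array, while late functional array 4 fell among the late regressed ones. The difference was -0.59 (SE 0.14, adjusted p = 0.0272), 1.51-fold lower in late regressed glands.

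MRPL41, also known in human cells as a partner of BCL2 (probe set MmugDNA.22636.1.S1_s_at), had 9.03, 8.91, 8.84 and 9.01 in late regressed, 9.03, 9.12, 9.13 and 8.47 in late functional, and 9.45, 9.41, 9.34 and 9.56 in mid-late arrays. Both late groups lay wholly below the mid-late arrays, and late functional array 4 was the lowest of the 12. The late regressed difference from mid-late was -0.49 (SE 0.13, adjusted p = 0.039), and the late functional one, -0.50 (adjusted p = 0.0866), was not called.

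MRPL55, a large subunit protein that mitochondrial ribosomes have and bacterial ones lack (probe set MmugDNA.11434.1.S1_at), had 6.82, 6.60, 6.49 and 6.57 in late regressed, 6.96, 7.10, 7.04 and 6.53 in late functional, and 6.87, 7.42, 7.24 and 7.30 in mid-late arrays. The late regressed arrays lay below all mid-late arrays, narrowly so for mid-late array 1. The difference was -0.59 (SE 0.14, adjusted p = 0.029). MRPL57, likewise particular to mitochondrial ribosomes (probe set MmugDNA.26745.1.S1_s_at), had 9.07, 8.88, 8.27 and 8.76 in late regressed, 9.19, 9.21, 9.15 and 8.90 in late functional, and 9.23, 9.53, 9.12 and 9.25 in mid-late arrays. Late regressed array 3 was the lowest and array 1 came close to the mid-late range. Its difference was -0.54 (SE 0.16, adjusted p = 0.0483), and another of its probe sets was also called, at -0.48 (adjusted p = 0.0368).

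Other large subunit genes were not called. MRPL1, of the stalk where used tRNA leaves, had 8.73, 8.37, 8.24 and 8.01 in late regressed, 8.88, 8.93, 8.81 and 8.21 in late functional, and 8.77, 9.05, 8.92 and 8.96 in mid-late arrays (difference -0.59, adjusted p = 0.051). Its late regressed and mid-late arrays did not overlap. MRPL49 went the other way on average but was spread widely, with 6.34, 5.41, 7.54 and 7.37 in late regressed, 6.74, 6.49, 6.99 and 7.21 in late functional, and 6.19, 5.98, 5.95 and 6.15 in mid-late arrays. Its late regressed array 2 was the lowest of the 12 and arrays 3 and 4 the highest, and the difference of 0.60 (SE 0.38, adjusted p = 0.312) was not called. MRPL12, which forms the flexible stalk of the large subunit, differed by -0.19 (adjusted p = 0.47). MRPL58, a peptide-releasing factor built into the large subunit, differed by 0.07 (adjusted p = 0.858).

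Of the 22 MRPS genes, 3 were lower (13.6%) and none was higher, beside 5.51% lower and 7.6% higher over all genes, and 17 differences were below 0. The MRPS symbols follow the small subunit, but the products of MRPS18A and MRPS30 sit in the large subunit in mammals. MRPS33, a small subunit protein with no bacterial counterpart (probe set MmugDNA.15292.1.S1_at), had 9.56, 9.05, 8.60 and 9.07 in late regressed, 9.69, 9.74, 9.63 and 9.46 in late functional, and 9.74, 9.87, 9.73 and 9.81 in mid-late arrays. The mid-late arrays were tight and the late regressed arrays ranged widely below them, array 3 lowest. The difference was -0.72 (SE 0.16, adjusted p = 0.02), 1.65-fold lower in late regressed glands.

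MRPS12, which sits at the decoding centre (probe set MmuSTS.3003.1.S1_at), had 8.78, 8.5, 8.54 and 8.45 in late regressed, 8.83, 8.94, 8.96 and 8.73 in late functional, and 8.86, 9.13, 8.77 and 9.01 in mid-late arrays. Late regressed array 1 reached the lowest mid-late array, and the other 3 lay below. The difference was -0.38 (SE 0.10, adjusted p = 0.0388), and both other probe sets of the gene were called lower too, at -0.66 (adjusted p = 0.0435) and -0.59 (adjusted p = 0.0177).

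MRPS16, whose loss in humans causes a deficiency of oxidative phosphorylation (probe set MmugDNA.36675.1.S1_at), had 9.37, 9.35, 9.38 and 9.45 in late regressed, 9.51, 9.55, 9.51 and 9.29 in late functional, and 9.56, 9.73, 9.71 and 9.71 in mid-late arrays. The late regressed arrays were close together and below all mid-late arrays. The difference was -0.29 (SE 0.07, adjusted p = 0.0336). The other probe set of MRPS16 went the opposite way, at 0.37 (adjusted p = 0.0943), so that the mean over both was 0.04 (adjusted p = 0.74).

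Other MRPS genes were not called. MRPS34 had 8.88, 8.30, 8.25 and 8.61 in late regressed, 9.09, 9.03, 9.0 and 8.44 in late functional, and 9.07, 9.35, 8.89 and 8.99 in mid-late arrays (difference -0.56, adjusted p = 0.0583). MRPS18A, a relative of a bacterial small subunit protein, had 9.39, 6.67, 7.83 and 9.24 in late regressed, 8.77, 8.97, 8.99 and 9.60 in late functional, and 8.79, 9.29, 8.5 and 8.36 in mid-late arrays. Late regressed arrays 2 and 3 were the lowest of the 12 and arrays 1 and 4 lay among the highest. MRPS22, whose mutations in humans impair the ovary, had 7.89, 8.72, 8.09 and 8.02 in late regressed, 7.90, 8.13, 7.99 and 7.83 in late functional, and 7.77, 7.83, 7.66 and 7.88 in mid-late arrays. Its late regressed arrays lay above all mid-late arrays, array 1 by little, and the difference of 0.39 (SE 0.15, adjusted p = 0.111) was not called. MRPS6 is a low-signal gene, at or below 4.64, and differed by -0.16 (adjusted p = 0.294).

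**Figure D2:**
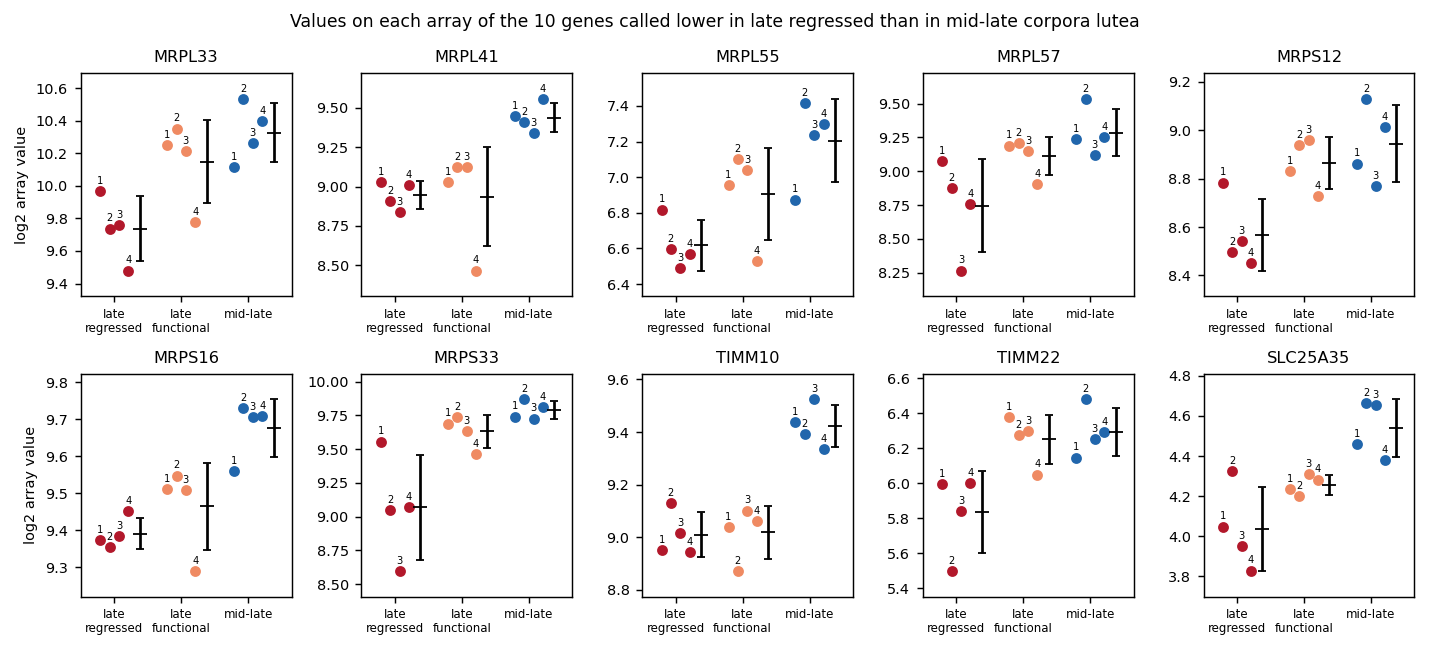
Log2 array value (y axis) on each array, numbered by replicate, of the 10 genes called lower in late regressed than in mid-late glands, with bars for mean and SD (n = 4). MRPS33 is tight in mid-late arrays (9.73 to 9.87) and spread in late regressed ones (8.60 to 9.56), and for TIMM10 and MRPL41 the late functional arrays also lie below the mid-late ones.

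The TOMM genes had no call. TOMM7, a small subunit of the entry complex, had 11.16, 11.17, 10.94 and 11.08 in late regressed, 11.02, 10.998, 11.21 and 11.06 in late functional, and 10.84, 10.94, 10.79 and 10.78 in mid-late arrays. Both late groups lay above the mid-late arrays, late regressed array 3 only just, and the late regressed difference from mid-late was 0.25 (SE 0.08, adjusted p = 0.0568). TOMM20, the receptor for cleavable leaders, had 9.25, 8.83, 8.73 and 9.05 in late regressed, 9.0, 9.11, 9.09 and 9.39 in late functional, and 8.55, 8.90, 8.74 and 8.82 in mid-late arrays. Its late functional arrays lay above all mid-late arrays, and its late regressed arrays overlapped both groups. TOMM70, the receptor that takes carriers from cytosolic chaperones, differed by -0.25 (adjusted p = 0.255). TOMM5, another small subunit, differed by 0.21 (adjusted p = 0.241), and its 3 other probe sets were between -0.19 and -0.09.

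Of the 12 TIMM genes, 2 were lower (16.7%) and none was higher, beside 5.51% lower and 7.6% higher over all genes. TIMM10, which with TIMM9 forms a chaperone for carriers on their way to the inner membrane (probe set MmugDNA.4322.1.S1_at), had 8.95, 9.13, 9.02 and 8.94 in late regressed, 9.04, 8.87, 9.10 and 9.06 in late functional, and 9.44, 9.39, 9.52 and 9.34 in mid-late arrays. The 2 late groups overlapped each other and both lay wholly below the mid-late arrays. The late regressed difference from mid-late was -0.41 (SE 0.07, adjusted p = 0.011), 1.33-fold lower. The 2 other probe sets of TIMM10 were at 0.39 (adjusted p = 0.137) and 0.22 (adjusted p = 0.396), and the mean over all of them was 0.07 (adjusted p = 0.742), so that the lower signal holds for the probe set with the highest mean.

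TIMM22, the channel that inserts carriers into the inner membrane (probe set MmugDNA.10159.1.S1_at), had 5.99, 5.5, 5.84 and 6.0 in late regressed, 6.38, 6.28, 6.30 and 6.05 in late functional, and 6.15, 6.48, 6.25 and 6.29 in mid-late arrays. The late regressed arrays lay below both other groups, and late functional and mid-late arrays overlapped. The difference from mid-late was -0.46 (SE 0.12, adjusted p = 0.0367), and the other probe set of TIMM22 was at -0.24 (adjusted p = 0.21).

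The channel for proteins with leaders gave smaller differences. TIMM23, its core, had 9.51, 9.06, 9.06 and 9.07 in late regressed, 9.52, 9.62, 9.52 and 9.42 in late functional, and 9.20, 9.37, 9.31 and 9.38 in mid-late arrays. Late regressed array 1 stood with the late functional arrays and the other 3 below all mid-late ones, with a difference from mid-late of -0.14 (adjusted p = 0.38) that was called without array 1, at -0.25 (adjusted p = 0.0455). TIMM17A and TIMM17B, its partner subunits, differed by -0.01 and -0.13, TIMM50, its receptor, by -0.15, and TIMM44, which tethers the import motor, by -0.08, with adjusted p-values between 0.425 and 0.968. The small chaperones TIMM9 and TIMM13 differed by 0.10 and 0.01 (adjusted p = 0.708 and 0.974).

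Of the 36 carriers, SLC25A35, a carrier without a settled substrate, was the 1 called gene, and its signal was low. That share of 2.78% lower was below the 5.51% lower over all genes. The probe set MmugDNA.6129.1.S1_at had 4.05, 4.32, 3.95 and 3.83 in late regressed, 4.24, 4.2, 4.31 and 4.28 in late functional, and 4.46, 4.67, 4.66 and 4.38 in mid-late arrays. Both late groups lay below the mid-late arrays by little, and the late regressed difference from mid-late was -0.50 (SE 0.11, adjusted p = 0.0178). Of all 36 carriers, 11 had a mean at or below 4.64, as did 1 ribosomal gene.

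The ADP/ATP carriers SLC25A4 and SLC25A5 were lower on average without a call. SLC25A4 had 9.47, 8.59, 8.53 and 9.37 in late regressed, 9.61, 9.68, 9.60 and 9.22 in late functional, and 9.47, 9.78, 9.52 and 9.71 in mid-late arrays (difference -0.63, SE 0.21, adjusted p = 0.0721). Late regressed arrays 2 and 3 were far below the rest, and arrays 1 and 4 close to it. SLC25A5 had 11.32, 11.13, 11.23 and 11.37 in late regressed, 11.39, 11.38, 11.39 and 11.03 in late functional, and 11.54, 11.63, 11.49 and 11.53 in mid-late arrays. Both late groups lay below the mid-late arrays, and the late regressed difference of -0.28 (SE 0.09, adjusted p = 0.0688) missed the threshold.

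SLC25A37, the iron importer mitoferrin, had 9.39, 7.17, 7.71 and 8.87 in late regressed, 9.41, 9.27, 9.56 and 9.07 in late functional, and 9.24, 9.03, 9.13 and 8.89 in mid-late arrays. The low mean came from late regressed arrays 2 and 3, and array 1 was above all mid-late arrays. SLC25A46, an outer membrane protein of the family that acts in mitochondrial shape, had 7.17, 7.34, 7.44 and 7.59 in late regressed, 7.72, 8.10, 7.65 and 7.65 in late functional, and 7.56, 7.71, 8.33 and 8.42 in mid-late arrays (difference -0.62, adjusted p = 0.0607). Late regressed array 4 reached into the mid-late range and no late regressed array reached the late functional one.

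Carriers above 0 included SLC25A40, linked in human cells to glutathione import, with 7.49, 7.06, 7.13 and 7.18 in late regressed, 6.97, 7.23, 7.02 and 6.96 in late functional, and 6.72, 7.01, 6.83 and 6.93 in mid-late arrays (difference 0.34, adjusted p = 0.0594). All late regressed arrays lay above all mid-late ones. SLC25A27, an uncoupling protein relative, had 6.75, 6.83, 7.19 and 7.39 in late regressed, 6.76, 6.83, 6.68 and 7.36 in late functional, and 6.58, 6.72, 6.69 and 6.62 in mid-late arrays. It too separated late regressed from mid-late arrays, its difference was 0.39 (adjusted p = 0.138), and another of its probe sets was called higher, at 0.74 (adjusted p = 0.0177). The citrate carrier SLC25A1 differed by -0.19 (adjusted p = 0.138), the phosphate carrier SLC25A3 by -0.11 (adjusted p = 0.46) and the dicarboxylate carrier SLC25A10 by -0.42 (adjusted p = 0.0912). The oxoglutarate carrier SLC25A11 was at 0.29 (adjusted p = 0.205) by its brightest probe set and lower by the other, at -0.58 (adjusted p = 0.0385). SLC25A31, a low-signal ADP/ATP carrier known from testis, differed by 0.09 (adjusted p = 0.364).

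Probe sets of 1 gene did not always go the same way. Of the 115 genes, 70 have 1 probe set, 45 have several, and 36 have another one with a mean above 4.64. For 22 of the 36, every such probe set had the sign of the brightest in late regressed against mid-late glands, and for 14 at least 1 had the opposite sign. Of the 71 probe sets that are not the brightest of their gene, 5 were called lower and 1 higher. Besides those of MRPS12, MRPL57, SLC25A11 and SLC25A27 these included one of MRPS14, at -0.30 (adjusted p = 0.0315).

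**Figure D3:**
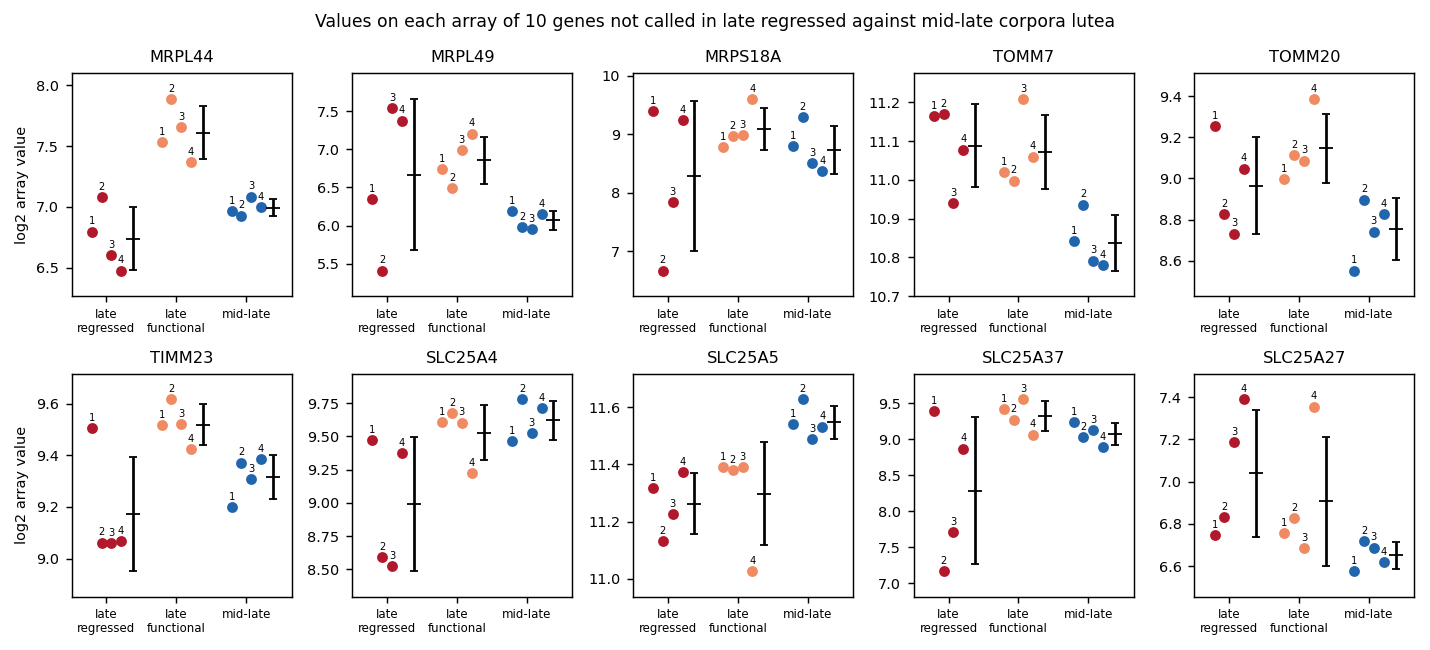
Log2 array value (y axis) on each array, numbered by replicate, of 10 genes not called in late regressed against mid-late glands, with bars for mean and SD (n = 4). Late regressed arrays 2 and 3 lie far below arrays 1 and 4 for SLC25A4 (8.59 and 8.53 against 9.47 and 9.37) and SLC25A37 (7.17 and 7.71 against 9.39 and 8.87), and the late functional arrays of MRPL44 (7.37 to 7.89) lie above all others.

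The late regressed arrays that stand apart bear on these counts. Without arrays 2 and 3 of that group, 975 of 52707 probe sets were called in late regressed against mid-late glands. With all arrays the number was 5282. Without the pair, 2 of the 115 genes were called lower, TIMM10 at -0.48 (adjusted p = 0.0378) and SLC25A35 at -0.60 (adjusted p = 0.0328), and none higher. From arrays 1 and 4 alone, the differences of the other 8 were -0.60 for MRPL33, -0.51 for MRPL55, -0.47 for MRPS33 and -0.42 for MRPL41. They were -0.37 for MRPL57, -0.33 for MRPS12, -0.30 for TIMM22 and -0.26 for MRPS16. Adjusted p-values of these 8 lay between 0.0848 and 0.192. Apart from MRPS12, their signs could not turn, because all their late regressed arrays lay below all mid-late arrays. SLC25A4 was then at -0.20 (adjusted p = 0.452), against -0.63 with all arrays. SLC25A37 was at 0.06 and MRPS18A at 0.58, against -0.79 and -0.45. The median of the 115 differences was -0.13 without the pair, against -0.09 with it.

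**Figure D4:**
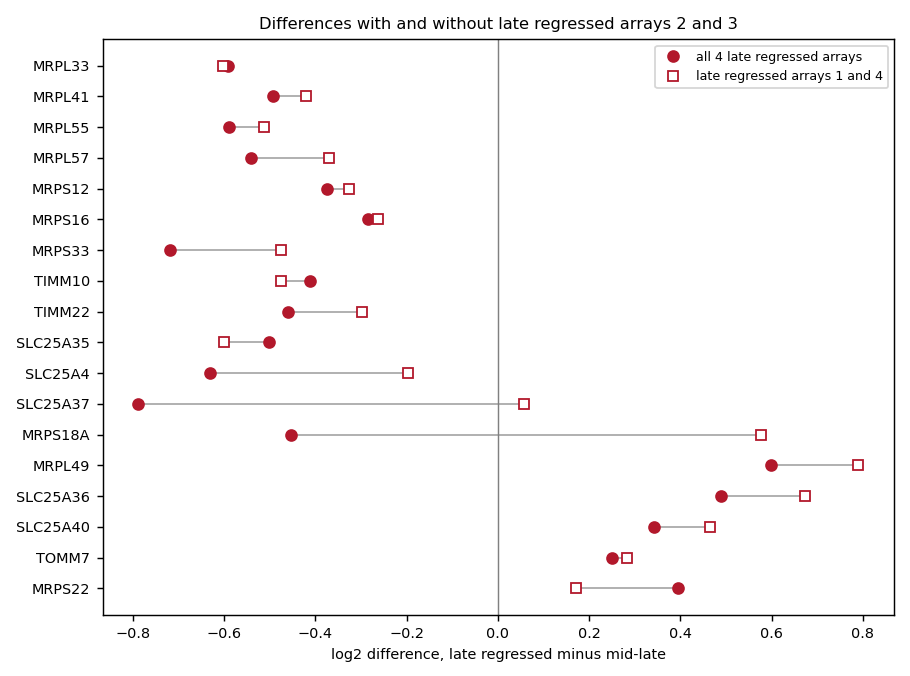
Log2 difference, late regressed minus mid-late (x axis), of 18 genes (y axis) with all 4 late regressed arrays (filled) and with arrays 1 and 4 alone (open squares). SLC25A37 and MRPS18A, at -0.79 and -0.45 with all arrays, lie at 0.06 and 0.58 without arrays 2 and 3. The 10 called genes lie below 0 both ways. For all but MRPS12 this was fixed beforehand, as their late regressed arrays lay wholly below the mid-late ones.

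The count of 10 lower genes also moved with other single arrays. It was 1 (TIMM10) without mid-late array 2, 4 without mid-late array 3, 3 without mid-late array 4, 4 without late regressed array 2, 3 without late regressed array 3 and 19 without late regressed array 1, and TIMM10 was called in all 12 fits that left out 1 array. Calls over all probe sets, 5282 with all arrays, moved as well. They were 2050, 2784 and 3472 without mid-late arrays 2, 3 and 4. Without late regressed arrays 2, 3 and 1 they were 3746, 2199 and 7532, each array left out alone. With the mean of the NC probe sets as a covariate no gene was called, at 0 lower and 0 higher; that mean was highest in the mid-late arrays, as given above.

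Late regressed against late functional glands sets regressed tissue against glands of the same days that still made progesterone. None of the 115 genes was called, beside 0% lower and 0.00708% higher over all genes. At an unadjusted p below 0.05, 17 were lower (14.8%) and 2 higher (1.74%) by limma, beside 7.78% and 8.34% of all genes, and with array weights 1 gene was called, MRPL44. All late regressed arrays lay below all late functional ones for 6 genes (5.22%), MRPL30, MRPL44, SLC25A14, SLC25A46, TIMM22 and TOMM34, and above them for 0, beside 3.28% and 2.63% of all genes. The median difference was -0.10, and 77 of 115 were below 0. By subfamily the medians were -0.14 for MRPL, -0.21 for MRPS, -0.18 for TOMM, -0.07 for TIMM and 0.00 for SLC25A genes.

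MRPL44, a large subunit protein related to RNA-cutting enzymes, missed the threshold narrowly. It had 6.80, 7.08, 6.61 and 6.48 in late regressed, 7.53, 7.89, 7.66 and 7.37 in late functional, and 6.96, 6.93, 7.09 and 7.0 in mid-late arrays. The late functional arrays lay above all arrays of both other groups, which overlapped each other. The difference of late regressed from late functional was -0.87 (SE 0.13, adjusted p = 0.0746), 1.83-fold lower, and it was called without late functional array 4, at -0.95 (adjusted p = 0.0292), and without late regressed array 1, at -0.89 (adjusted p = 0.0217). Over all probe sets, those fits called 149 and 924, against 1 with all arrays. Signs of other probe sets were compared only in late regressed against mid-late glands. There the other probe set of MRPL44 above 4.64 had the sign of the brightest, which does not bear on the difference from late functional glands. The 3 more probe sets of MRPL44 were low.

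No other gene was called either. SLC25A37 differed by -1.04 (SE 0.38, adjusted p = 0.321) and MRPS18A by -0.80 (SE 0.50, adjusted p = 0.59). MRPS33 differed by -0.56 (SE 0.16, adjusted p = 0.235), TIMM22 by -0.42 (SE 0.12, adjusted p = 0.243), SLC25A46 by -0.39 (adjusted p = 0.454) and TIMM23 by -0.34 (SE 0.10, adjusted p = 0.251). Leaving out late regressed array 1 brought calls for 4 genes, MRPL44, MRPS33, SLC25A37 and TIMM23. The same fit raised the calls over all probe sets in this comparison from 1 to 924, so the gain was not particular to these genes. On the upper side, SLC25A11 differed by 0.40 (adjusted p = 0.32), and MRPS9, a small subunit protein with a bacterial counterpart, by 0.32 (adjusted p = 0.251). MRPS9 had 6.29, 6.53, 6.52 and 6.46 in late regressed, 5.94, 6.10, 6.19 and 6.32 in late functional, and 6.28, 6.12, 6.36 and 6.37 in mid-late arrays, so that late regressed array 1 fell inside the late functional range. MRPL50 and TIMM9 were at 0.15 each, TOMM7 at 0.02 and TOMM70 at -0.21, with adjusted p-values between 0.617 and 0.97.

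Late functional against mid-late glands sets 2 stages that both made progesterone against each other, with the mid-late arrays already used above. TIMM10 was lower, at -0.40 (SE 0.07, adjusted p = 0.0403), and was the 1 call of the 115 genes, beside 0.594% lower and 0.58% higher over all genes. Its difference of late regressed from late functional was -0.01 (SE 0.07, adjusted p = 0.984), and the call was lost without any 1 of the mid-late or late functional arrays, at adjusted p-values of up to 0.118. At an unadjusted p below 0.05, limma gave 8 lower (6.96%) and 9 higher (7.83%) genes, beside 10.5% and 9.64% of all genes. Late functional arrays lay wholly below mid-late ones for 8 genes (6.96%) and wholly above for 9 (7.83%), beside 8.5% and 10.4% of all genes.

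The 9 genes above the mid-late arrays were MRPL43, MRPL44, MRPL49, SLC25A26, TIMM23, TIMMDC1, TOMM20, TOMM34 and TOMM7, and the 8 below them were MRPL41, MRPS16, SLC25A3, SLC25A34, SLC25A35, SLC25A48, SLC25A5 and TIMM10. MRPL44 differed by 0.62 (SE 0.13, adjusted p = 0.0575), and it was called, at adjusted p-values of 0.0104 to 0.0333, in 5 of the other fits, with array weights among them. Over all probe sets, those 5 fits called between 883 and 3106 in this comparison, against 470 in the main fit. The gain was thus not particular to MRPL44. MRPL49 differed by 0.79 (SE 0.38, adjusted p = 0.289), TOMM20 by 0.39 (SE 0.13, adjusted p = 0.137) and TOMM7 by 0.23 (SE 0.08, adjusted p = 0.139). SLC25A26, the carrier of S-adenosylmethionine, had 7.23, 6.84, 7.05 and 7.38 in late regressed, 7.35, 7.31, 7.40 and 7.47 in late functional, and 7.23, 7.04, 7.0 and 7.0 in mid-late arrays. Its late functional arrays were tight and above the mid-late ones, with a difference of 0.32 (SE 0.11, adjusted p = 0.151). TIMM23 differed by 0.20 (adjusted p = 0.312). TIMMDC1, which despite its name helps assemble complex I in human cells, differed by 0.23 (adjusted p = 0.261).

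On the lower side, SLC25A5 differed by -0.25 (adjusted p = 0.181) and SLC25A3 by -0.23 (adjusted p = 0.198). SLC25A3 had 10.91, 10.96, 10.76 and 10.95 in late regressed, 10.93, 10.79, 10.85 and 10.51 in late functional, and 10.95, 11.04, 10.97 and 11.05 in mid-late arrays. The late functional arrays lay below the mid-late ones, array 1 by little, and late regressed array 2 reached the mid-late range. SLC25A36, a pyrimidine nucleotide carrier, differed by 0.56 (SE 0.23, adjusted p = 0.218), MRPS18A by 0.35, SLC25A34 by -0.36, MRPS16 by -0.21 and TOMM70 by -0.04, none of them called. The subfamily medians were -0.01 for MRPL, -0.06 for MRPS, 0.23 for TOMM, -0.01 for TIMM and -0.06 for SLC25A genes. The median over all genes was -0.01. With arrays centred on their medians, the MRPL and TIMM medians were 0.04 each, and so was the median over all genes. With quantile normalization the MRPL and TIMM medians were -0.11 and -0.10, beside -0.02 over all genes.

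Late functional array 4 differed from the other late functional arrays in the ribosomal genes and in several other lists. The number of the 115 genes below their mid-late mean was 66, 66, 85 and 87 on late regressed arrays 1 to 4, 55, 42, 46 and 84 on late functional arrays, and 75, 24, 87 and 48 on the mid-late arrays themselves, so that this count does not set array 4 apart from the mid-late arrays. The mean deviation of the MRPL genes from their mid-late means was -0.28 on that array, against 0.05, 0.12 and 0.08 on the other late functional arrays -0.11, -0.08, -0.24 and -0.25 on the late regressed arrays, and -0.06, 0.10, -0.07 and 0.03 on the mid-late arrays. For the MRPS genes it was -0.26 on that array, against -0.02, 0.08 and 0.06 on the other late functional arrays -0.02, -0.34, -0.29 and -0.25 on the late regressed ones, and -0.07, 0.16, -0.09 and 0.00 on the mid-late ones. The 57 respiratory chain and ATP synthase symbols stood at -0.33 on the same array, and luteal markers at -0.53, the lowest value of the late functional arrays. TIMM genes stood at -0.17 on late functional array 4, against 0.005, 0.05 and 0.09 on arrays 1 to 3 of that group. The import partners, translation genes and tRNA synthetases described below were also lowest there among late functional arrays, at -0.17, -0.14 and -0.11. TOMM genes did not share the low value, with 0.16, 0.18, 0.23 and 0.23 on late functional arrays 1 to 4. Without late functional array 4, the median of the 115 differences of late functional from mid-late was 0.03, against -0.04 with it.

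**Figure D5:**
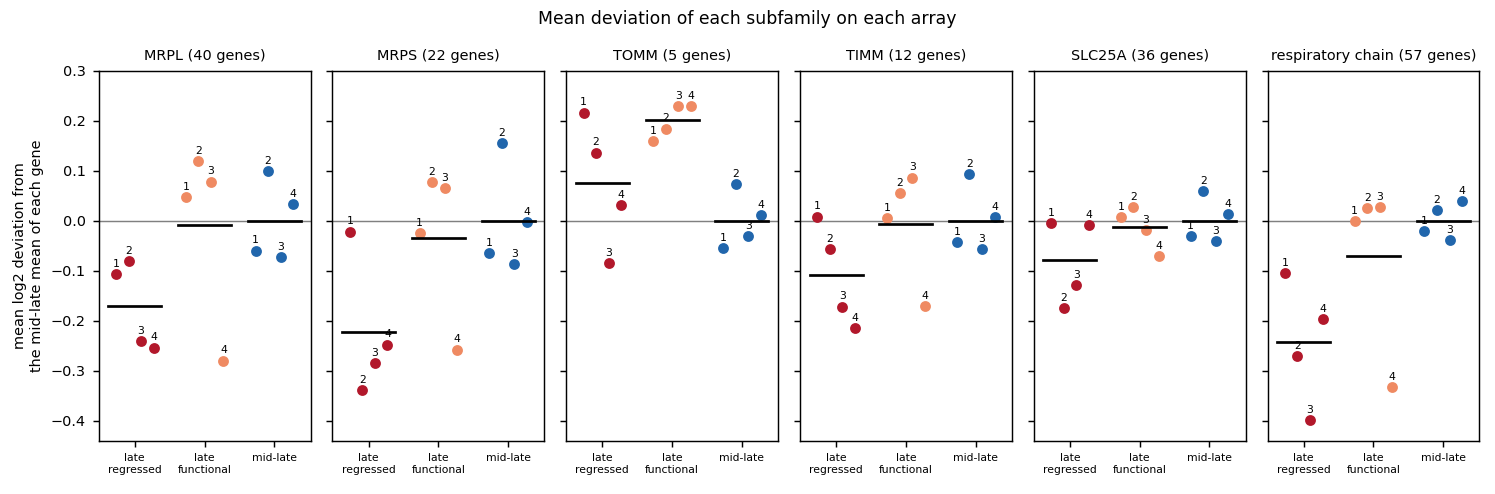
Mean log2 deviation of a subfamily's genes from their mid-late means (y axis) on each array, numbered by replicate, with a bar for the group mean and the 57 respiratory chain and ATP synthase symbols beside the 5 subfamilies. Late functional array 4 lies below arrays 1 to 3 for MRPL (-0.28), MRPS (-0.26) and TIMM genes (-0.17) but not for TOMM genes (0.23).

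The median SD of the 115 genes over the 4 arrays of a group was 0.22 in late regressed, 0.17 in late functional and 0.12 in mid-late glands, beside 0.21, 0.13 and 0.14 over all genes. Among genes with a mean above 4.64 it was 0.23, 0.18 and 0.12 for the 103 described here, beside 0.27, 0.15 and 0.14 for all 9424 in the same order of groups. The widest SDs of late regressed arrays were 1.28 for MRPS18A, 1.02 for SLC25A37, 0.99 for MRPL49 and 0.90 for MRPS18B. MRPS16 had an SD of 0.04 there.

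Genes that work with these were read from lists of names. Of 30 partners of protein import, 21 were measured, with a median difference of -0.21 between late regressed and mid-late glands. Of these 21, 2 were lower (9.52%) and 0 higher, beside 5.51% lower and 7.6% higher over all genes. PMPCB, a subunit of the peptidase that removes leaders, had 9.98, 9.91, 9.71 and 10.16 in late regressed, 10.52, 10.54, 10.28 and 10.16 in late functional, and 10.51, 10.41, 10.43 and 10.55 in mid-late arrays (difference -0.54, adjusted p = 0.0161). ROMO1, a small inner membrane protein tied to the import channel, differed by -0.51 (adjusted p = 0.0396).

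Of 35 mitochondrial translation factors and related proteins, 26 were measured, with a median of 0.01. Of these 26, 1 was lower (3.85%) and 1 higher, both shares below the 5.51% lower and 7.6% higher of all genes. MTIF2, the initiation factor, had 8.91, 9.74, 10.07 and 9.15 in late regressed, 8.88, 9.01, 8.90 and 8.87 in late functional, and 8.65, 8.62, 8.70 and 8.91 in mid-late arrays, and it was higher in late regressed than in mid-late glands by 0.74 (adjusted p = 0.0418). Late regressed arrays 2 and 3 were the highest, and array 1 touched the mid-late range. TSFM, an elongation factor, was lower, with a difference of -0.57 (adjusted p = 0.0475). Of 17 mitochondrial tRNA synthetases, 14 were measured and 1 was called lower (7.14%), near the 5.51% lower of all genes. It was EARS2, which charges glutamate, with 5.29, 5.32, 5.42 and 5.27 in late regressed, 6.09, 6.14, 6.0 and 5.33 in late functional, and 5.84, 5.84, 5.88 and 6.01 in mid-late arrays (difference -0.57, adjusted p = 0.0364). The late regressed arrays lay below all mid-late ones, and late functional array 4 fell among them. The outer membrane channels VDAC, 2 of 3 measured, had no call and a median of -0.20. In late regressed against late functional glands none of the import partners, translation factors and synthetases was called by limma, and at an unadjusted p below 0.05 there were 4 lower import partners, 1 lower and 1 higher translation gene, and 4 lower synthetases, of 21, 26 and 14 genes, against the 7.78% lower and 8.34% higher of all genes. In late functional against mid-late glands none was called either, and the counts at that threshold were 1 lower import partner, 4 higher translation genes and 1 higher synthetase, against 10.5% lower and 9.64% higher of all genes.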

How the data were processed

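The deposited values are log2 values from RMA, per the submitters' processing notes (version and settings: not given in the sources used here). Per the labels' protocols, total RNA of flash frozen glands was labelled with biotin in a one-cycle protocol. No batch or scan date was used, and the number of arrays, 4 per group, limits the precision. Control probe sets were left out, leaving 52707. All 12 arrays entered 1 fit of group means by limma (version 3.58.1, under R 4.3.3), with empirical Bayes and Benjamini-Hochberg adjustment. The test was tried on simulated data with known changes. Symbols came from the platform annotation, and 114 of the 115 genes matched RefSeq by Entrez ID. Probe sets with several symbols were left out.

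Named genes are a panel of 27 (21 measured; TOMM22, TOMM40, TIMM8A, TIMM8B, SLC25A6 and SLC25A20 were not analysed here), all called genes, the largest differences of subfamilies without a call, and the brightest and dimmest gene of each subfamily. Others, such as MRPL1, MRPS34, MRPS22, SLC25A46, SLC25A40, SLC25A26, TIMMDC1, MRPS14 and those whose groups did not overlap, were chosen after their values were seen. The genes and all lists were chosen with earlier results of these data known. Alternatives tried were filters, scalings, covariates, array weights, a replicate block, other probe set rules and leaving out arrays.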

Additional observations from a re-analysis of the deposited data

Results flagged for a closer look

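The groups of 4 arrays looked at were 162, of the named genes and of the mean deviations of each subfamily and of all genes described here. Of these, 11 held an array whose gap to the nearest of the other 3, over the range of the group, was above Dixon's 95% critical value, where chance flags about 1 group in 20. All 11 were groups of named genes. Late functional array 4 was the low one in 7 of them. It had 8.21 for MRPL1 (others 8.81 to 8.93), 7.50 for MRPL12 (8.15 to 8.26), 8.47 for MRPL41 (9.03 to 9.13) and 9.29 for MRPS16 (9.51 to 9.55). It also had 8.44 for MRPS34 (9.0 to 9.09), 9.22 for SLC25A4 (9.60 to 9.68) and 11.03 for SLC25A5 (11.38 to 11.39). These 7 flags come from 1 array and are not independent of each other.

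Mid-late array 1 was low for MRPS16, at 9.56 against 9.71 to 9.73 on the other mid-late arrays. Late functional array 2 was high for SLC25A46, at 8.10 against 7.65 to 7.72. Late regressed array 1 was high for TIMM23, at 9.51 against 9.06 to 9.07, and late regressed array 2 was high for TIMMDC1, at 8.86 against 8.42 to 8.49.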

How the results depend on the processing

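The 10 genes lower in late regressed than in mid-late glands became 15 with quantile normalization, 12 with the NC percentile filter, 10 with the median filter, 9 without _x_at, _s_at and _a_at probe sets, 8 with probe set means, 7 with the 3′ to 5′ covariate, 5 with median centring, 5 with a trended and robust prior, 3 with only those groups fitted, 6 with array weights, 0 with the NC mean as a covariate and 2 without late regressed arrays 2 and 3 (1 to 19 when 1 array was left out). The 0 higher ones became 1 with centring, 2 with the 3′ to 5′ covariate and 1 with means over probe sets (0 to 2). In late functional against mid-late glands, the 1 lower gene became 0 under both filters, centring, the trended prior, the replicate block, the NC covariate and probe set means, and 2 with array weights (0 to 1). The 0 higher ones became 3 with only the groups compared, 2 with array weights, 1 with the 3′ to 5′ covariate and 2 without late regressed arrays 2 and 3 (0 to 1). In late regressed against late functional glands, 0 lower genes became 1 with array weights (0 to 4).

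Over all probe sets, the 5282 called in late regressed against mid-late glands became 1620 with only those groups, 2839 with array weights, 0 with the NC covariate and 975 without arrays 2 and 3 (2050 to 7532). The 470 of late functional against mid-late became 107 and 72 with the filters at the median probe set and the NC percentile, 2682, 3106 and 883 with only the groups, array weights and the 3′ to 5′ covariate, 4 with the replicate block, 0 with the NC covariate and 2417 without arrays 2 and 3 (4 to 1008). The 1 of late regressed against late functional became 10 with each filter, 2 and 5 with centring and quantile normalization, 15 with the trended prior, 11 with array weights, 5 with the NC covariate, and 0 with only the groups, the replicate block, the 3′ to 5′ covariate or without arrays 2 and 3 (0 to 924). The share higher among calls was 54.0% as deposited, 67.6% centred and 45.4% quantile normalized in late regressed against mid-late, and 37.2%, 56.2% and 25.2% in late functional against mid-late. Same-numbered arrays correlated between -0.12 and 0.30 in their deviations. Differently numbered arrays were not compared, so these values cannot decide whether the numbers pair the samples. With the replicate block 7 genes were lower in late regressed than in mid-late glands.

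Some signs turned, and the cause was not tested except that means over probe sets take in probe sets of opposite sign; TIMM10 and MRPS16, called by their brightest probe sets, are among these. In late regressed against mid-late glands, the NC covariate gave MRPL58 -0.40, MRPS18A 0.22, MRPS6 0.14, SLC25A3 0.010, TIMM17A 0.0068, TIMM17B 0.034, TIMM44 0.0047, TIMM9 -0.11 and TOMM70 0.086. Without late regressed arrays 2 and 3, MRPL58 was -0.18, MRPS18A 0.58, SLC25A37 0.058, TIMM17B 0.065, TIMM9 -0.14, TIMMDC1 -0.016 and TOMM34 0.0063, and against late functional glands MRPL50 was -0.035, MRPS18A 0.23 and TIMM9 -0.092. Means over probe sets gave MRPS16 0.042, SLC25A11 -0.14, TIMM10 0.065, TIMM13 -0.11, TIMM17A 0.060 and TOMM5 -0.045. Quantile normalization gave SLC25A26 -0.069, TIMM13 -0.079 and TIMM9 -0.035, centring gave TIMM17A 0.038, array weights TIMM9 -0.0098, the 3′ to 5′ covariate TIMM9 -0.020, and leaving out _x_at, _s_at and _a_at probe sets TIMM13 -0.18. In late regressed against late functional glands TOMM7 was -0.013 with the 3′ to 5′ covariate, and in late functional against mid-late glands TOMM70 was 0.0096 with centring and 0.24 with the NC covariate. Leaving out 1 array, late regressed against mid-late values ran from -0.195 to 0.054 for MRPL50, -0.21 to 0.21 for MRPL58, -0.823 to 0.084 for MRPS18A, -0.028 to 0.15 for SLC25A26, -0.11 to 0.13 for TIMM13, -0.065 to 0.054 for TIMM17A and -0.056 to 0.22 for TIMM9. Against late functional glands they ran from -0.0070 to 0.27 for TIMM9 and -0.011 to 0.066 for TOMM7, and for TOMM70 in late functional against mid-late glands from -0.094 to 0.0059. Low-signal genes, 12 of the 115, are near background and their differences are limited by it.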

Other observations

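Among 57 measured gene symbols of the respiratory chain and ATP synthase, 5 were lower (8.77%) and 1 higher in late regressed than in mid-late glands by limma. The symbols were picked by their first letters. Not all need be subunits (ATP5IF1) or separate genes (ATP5G1 and ATP5MC1). Over all genes, 5.51% were lower and 7.6% higher in that comparison. The median difference of the 57 was -0.26, beside -0.02 over all genes. UQCRQ, a subunit of complex III, was at -0.73 (adjusted p = 0.0271), UQCRFS1, its iron-sulphur protein, at -0.56, and the complex I subunits NDUFA7, NDUFS7 and NDUFA8 at -0.72, -0.41 and -0.38. COX7A2, of complex IV, was the higher one, at 0.34. Of 16 measured genes of mitochondrial DNA upkeep and transcription, 1 was called higher (6.25%), below the 7.6% higher over all genes. It was POLG, the DNA polymerase, at 0.61 (adjusted p = 0.03). The median of the 16 was 0.19.

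Among 39 measured proteins of the cytosolic ribosome, 17.9% were called in the same comparison, beside 5.51% lower and 7.6% higher over all genes. Of the 39, 6 were higher (RPL22, RPL23, RPL35A, RPL4, RPS10 and RPS26, between 0.24 and 0.50) and 1 was lower (RPL19, at -0.57), with a median of 0.18. The mean deviation of the 39 from the mid-late means was 0.13, 0.26, 0.17 and 0.03 on late regressed arrays 1 to 4, against -0.07 to 0.04 on mid-late arrays. The MRPS genes stood at -0.02, -0.34, -0.29 and -0.25 on the same late regressed arrays. A difference between these lists was not tested.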
